A study of Homo sapiens with 6 samples.

Results

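AP-1 and immediate early genes were followed in T24 cells after silencing of TRIM28. The group was chosen by gene symbol and holds 10 genes of the 78932 in the count table: the FOS family (FOS, FOSB, FOSL1, FOSL2), the JUN family (JUN, JUNB, JUND), ATF3, EGR1 and IER3. These genes were chosen with earlier results of these data known. T24 is an established human urothelial carcinoma cell line. Poly(A) RNA was sequenced from 3 cultures transfected with a control siRNA (siNC) and 3 transfected with an siRNA against TRIM28 (siTRIM28), with no other treatment in the labels and all given the same batch in the labels. TRIM28 encodes a corepressor that KRAB zinc finger proteins bring to DNA, and a SUMO E3 ligase. The model is a transient transfection of 1 cell line, and the labels state neither the time of harvest nor which TRIM28 siRNA was used. The comparison asks which of these transcripts changed when TRIM28 was low.

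AP-1 is a dimer of basic leucine zipper (bZIP) proteins. JUN proteins pair with themselves or with FOS proteins, FOS proteins need a partner, and the make-up of the dimer shapes which target genes are bound and how strongly. Immediate early genes are transcribed within minutes of a growth or stress signal without new protein synthesis, through serum response factor (SRF) with its ELK partners and through CREB, and many of their mRNAs are short-lived. In carcinoma cells FOSL1 and JUN are well known as AP-1 subunits tied to growth, migration and invasion.

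Total counts were between 12989362 and 13942383 in the siNC libraries and between 11712623 and 14018052 in the siTRIM28 libraries. TRIM28 itself had 1419, 1393 and 1382 counts in the siNC libraries and 130, 96 and 109 in the siTRIM28 libraries, a log2 fold change of -3.54 (SE 0.0723, edgeR adjusted p = 1.03e-10). In both groups 1 pair of libraries was closer than the others: the chi-square per degree of freedom between libraries was 1.08 for siNC replicates 1 and 2 and 1.24 for siTRIM28 replicates 2 and 3, against 4.59 to 6.99 for the other pairs. A value near 1 is what counting alone would give, so whether the libraries of a close pair are separate cultures is not known. These pairs were kept as separate replicates, and results that changed when each was summed are given with their values. The mitochondrial share of counts was 4.95% to 5.29% in siNC and 5.72% to 6.29% in siTRIM28, and its part in the differences below was not tested. Of 14 urothelial and epithelial markers, 5 passed the count minimum, with summed levels of 190 to 196 CPM (counts scaled to the library size) in siNC and 212 to 220 CPM in siTRIM28. KRT8 and KRT18 made up most of these sums, whereas KRT20 and UPK1B were at 0 in all 6 libraries. KRT5, KRT19, UPK2, UPK3A, GATA3, EPCAM and CDH1 were under the minimum. TP63 passed through the siTRIM28 group alone, with 9, 4 and 6 counts in siNC and 11, 15 and 10 in siTRIM28. The uroplakin UPK1A, also a luminal urothelial marker, had 17, 15 and 4 counts in siNC and 58, 38 and 34 in siTRIM28 (log2 fold change 1.94, edgeR adjusted p = 0.000548), and its part in the differences below was not tested. CD68, which tumour cells can also express, was the 1 immune marker of 6 past the minimum, and the summed list was 343 to 346 CPM in siNC and 337 to 361 CPM in siTRIM28, with CD3E at 0. None of 4 endothelial markers passed, with sums of 0.430 to 0.502 CPM and 0.713 to 1.02 CPM and with CDH5 and KDR at 0, and of 5 fibroblast markers COL1A1 and PDGFRA passed, with sums of 1.94 to 2.73 CPM and 3.64 to 5.15 CPM.

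All 10 genes differed between the groups at an adjusted p under 0.05, 7 higher and 3 lower in siTRIM28. FOS, FOSB, FOSL1, JUN, JUNB, EGR1 and IER3 rose, and FOSL2, JUND and ATF3 fell. Across the 18474 genes tested, 41.8% were called, 21.3% higher and 20.5% lower, so a call by itself was common in these libraries. In bulk RNA a change in the number of cells with a transcript and a change in its amount per cell cannot be told apart. Values of the 2 groups did not overlap for any of the 10 genes, against 52% of all genes tested. FOSB passed the minimum of 10 counts in 3 libraries through the siTRIM28 group alone and so had to differ; of the other 9 genes, 6 rose and 3 fell. The median log2 fold change of the 10 genes, FOSB included, was 0.82 and that of all genes tested was 0.02. Without FOSB the middle value of the other 9 genes was that of IER3, 0.74. The exact two-sided permutation test gave p = 0.1 for each of the 10 genes, which is the smallest value that 3 against 3 libraries allow.

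**Figure D1:**
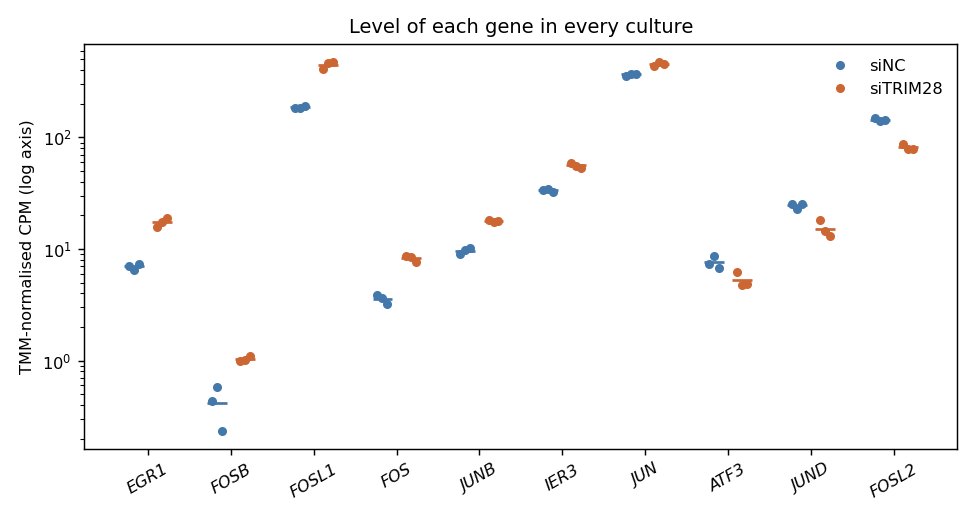
Normalised level of each gene in the 6 cultures, in CPM on a log axis; points are libraries, horizontal bars are group means, blue is siNC and orange is siTRIM28. The groups are apart for every gene, with FOSL2, JUND and ATF3 lower in siTRIM28.

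FOSL1 (ENSG00000175592, chr11:65892049-65900573, minus strand, GRCh38) encodes FRA-1, a FOS protein without the strong transactivation domain of FOS. Its level was 183, 182 and 192 CPM in the siNC libraries and 414, 465 and 470 CPM in the siTRIM28 libraries. Every siTRIM28 library was above 2-fold of every siNC library. The group means were 186 ± 5.56 and 449 ± 30.7 CPM (± SD over 3 libraries), and the fitted log2 fold change was 1.28 (SE 0.0525, edgeR adjusted p = 1.32e-08). This change lay above those of 98.2% of the genes tested.

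FOSL2 (ENSG00000075426, chr2:28392448-28412192, plus strand) encodes FRA-2, a close relative of FRA-1, and went the other way. Its level was 148, 141 and 144 CPM in siNC and 87.6, 78.2 and 78.7 CPM in siTRIM28. The siNC libraries were all higher, by 1.77-fold in the fitted ratio (log2 fold change -0.83, SE 0.0537, edgeR adjusted p = 3.58e-07). The log2 ratio of FOSL1 to FOSL2 within a library was 0.30, 0.36 and 0.41 in siNC and 2.24, 2.57 and 2.57 in siTRIM28. The difference was 2.10, with a 95% interval of 1.78 to 2.42 (exact permutation p = 0.1, adjusted over 6 pairs 0.15).

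FOS (ENSG00000170345, chr14:75278826-75282230, plus strand), the classical serum-induced subunit, was a low transcript in these cells. It had 54, 50 and 41 counts in siNC and 121, 101 and 90 in siTRIM28, or 3.89, 3.61 and 3.21 CPM and 8.64, 8.53 and 7.60 CPM. The lowest siTRIM28 library stood above the highest siNC library, and the fitted log2 fold change was 1.21 (SE 0.138, edgeR adjusted p = 3.13e-05). Its change was close to that of FOSL1: the FOS to FOSL1 log2 ratio differed by -0.10 between the groups, with a 95% interval of -0.50 to 0.30 (exact permutation p = 0.6, adjusted 0.6), so an unequal change of up to that size could not be seen.

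FOSB (ENSG00000125740, chr19:45467995-45474597, plus strand), a second serum-induced FOS gene, was close to the limit of detection. It had 6, 8 and 3 counts in siNC and 14, 12 and 13 in siTRIM28, with a log2 fold change of 1.28 (SE 0.352, edgeR adjusted p = 0.0119). DESeq2 gave an adjusted p of 0.0735 for FOSB. The gene lies within ERCC1, a DNA repair gene on the opposite strand with 1268 to 1811 counts that fell by 0.30 on the log2 scale (adjusted p = 0.000212 by edgeR).

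On a scale per gene length (RPKM, reads per kilobase of the deposited gene length, scaled to the library size), the summed level of the 4 FOS family transcripts was 120 ± 2.86 in siNC and 252 ± 15.5 in siTRIM28 (SD, n = 3 each). FOSL1 made up 81.7%, 82.3% and 82.9% of the sum in the siNC libraries and 93.8%, 94.9% and 95% in the siTRIM28 libraries. The share of FOSL2 was 16.9% ± 0.532 and 4.55% ± 0.593. FOSL1 thus gained 12.3 percentage points and FOSL2 lost nearly the same (exact permutation p = 0.1 for both, the smallest possible). FOS and FOSB held little of the sum, so in these shares the FOSL2 loss mirrors the FOSL1 gain and is not a separate result. FOS was 0.722% of the sum in siNC and 0.795% in siTRIM28 (exact permutation p = 0.4), and FOSB was 0.0630% and 0.0743% (exact permutation p = 0.7). Without the division by length, the FOSL1 gain was 27.6 points.

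JUN (ENSG00000177606, chr1:58776845-58784048, minus strand) encodes the main dimerisation partner of FOS proteins and was the highest JUN family transcript. Its level was 358, 372 and 371 CPM in siNC and 439, 470 and 454 CPM in siTRIM28. The groups were apart but close, with a log2 fold change of 0.31 (SE 0.0400, edgeR adjusted p = 7.97e-05), above those of 75.8% of the genes tested. The log2 ratio of FOS to JUN was higher in siTRIM28 by 0.87, with a 95% interval of 0.56 to 1.18 (exact permutation p = 0.1, adjusted 0.15).

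JUNB (ENSG00000171223, chr19:12791486-12793315, plus strand), an immediate early subunit that activates less strongly than JUN, had 9, 9.75 and 10.3 CPM in siNC and 18.4, 17.4 and 18.0 CPM in siTRIM28. The SD within either group was under 1 CPM, and the log2 fold change was 0.89 (SE 0.0791, edgeR adjusted p = 4.04e-06). JUNB lies within HOOK2, a gene on the opposite strand that rose by 0.32 on the log2 scale (edgeR adjusted p = 0.00426). JUND (ENSG00000130522, chr19:18279694-18280929, minus strand), which is expressed in resting cells and is not typically induced by serum, had 25.5, 23 and 25.3 CPM in siNC and 18.1, 14.4 and 13.1 CPM in siTRIM28. All 3 siTRIM28 libraries were lower, with a log2 fold change of -0.69 (SE 0.104, edgeR adjusted p = 0.000256). The JUN to JUND log2 ratio was higher in siTRIM28 by 1.01 (95% interval 0.54 to 1.48), and the JUN to JUNB ratio was lower, with a difference of -0.57 (95% interval -0.75 to -0.39; exact permutation p = 0.1 and adjusted 0.15 for both).

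Per length, JUN was 84.9% ± 0.628 of the JUN family sum in siNC and 87.6% ± 1.25 in siTRIM28, a gain of 2.77 percentage points (exact permutation p = 0.1). JUNB went from 4.43% to 6.85% and JUND from 10.7% to 5.52%. The JUN family sum was 119 ± 2.19 RPKM in siNC and 143 ± 3.26 RPKM in siTRIM28. The ratio of the JUN family sum to the FOS family sum was 0.998 ± 0.0212 in siNC and 0.569 ± 0.0296 in siTRIM28 (exact permutation p = 0.1), so transcripts of FOS proteins went from near parity with those of JUN proteins to an excess on this scale.

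ATF3 (ENSG00000162772, chr1:212565334-212620777, plus strand), a stress-induced bZIP factor that pairs with JUN proteins and often represses, had 7.27, 8.67 and 6.82 CPM in siNC and 6.28, 4.73 and 4.81 CPM in siTRIM28. The highest siTRIM28 library lay just below the lowest siNC library. The log2 fold change was -0.52 (SE 0.154, edgeR adjusted p = 0.0186). This was the least firm of the falls: the edgeR adjusted p was 0.0777 without siNC replicate 2, 0.0676 without siTRIM28 replicate 2, 0.0608 without siTRIM28 replicate 3 and 0.0878 with the close pairs of libraries summed.

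EGR1 (ENSG00000120738, chr5:138465479-138469303, plus strand) encodes a zinc finger factor that is induced through SRF and is not part of AP-1. It had 98, 90 and 94 counts in siNC and 220, 206 and 223 in siTRIM28, or 7.06, 6.5 and 7.37 CPM and 15.7, 17.4 and 18.8 CPM. The libraries were apart by more than the range within either group, with a log2 fold change of 1.31 (SE 0.0988, edgeR adjusted p = 1.15e-06), the highest of the 10 genes. The EGR1 to FOS log2 ratio differed by 0.11, with a 95% interval of -0.36 to 0.58 (exact permutation p = 0.5, adjusted 0.6), and the difference was -0.0055 without siTRIM28 replicate 3. IER3 (ENSG00000137331, chr6:30743199-30744547, minus strand), an early response gene linked to cell survival, had 34.0, 34.4 and 32.3 CPM in siNC and 59.1, 56.0 and 53.3 CPM in siTRIM28. Its log2 fold change was 0.74 (SE 0.0632, edgeR adjusted p = 2.95e-06). IER3 overlaps the opposite-strand genes IER3-AS1, which rose by 0.92 on the log2 scale (edgeR adjusted p = 2.01e-05), and HCG20, which rose by 0.89 (edgeR adjusted p = 0.0019); the strand setting of the counting is not given in the sources used here, so reads of these genes may be shared with IER3.

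**Figure D2:**
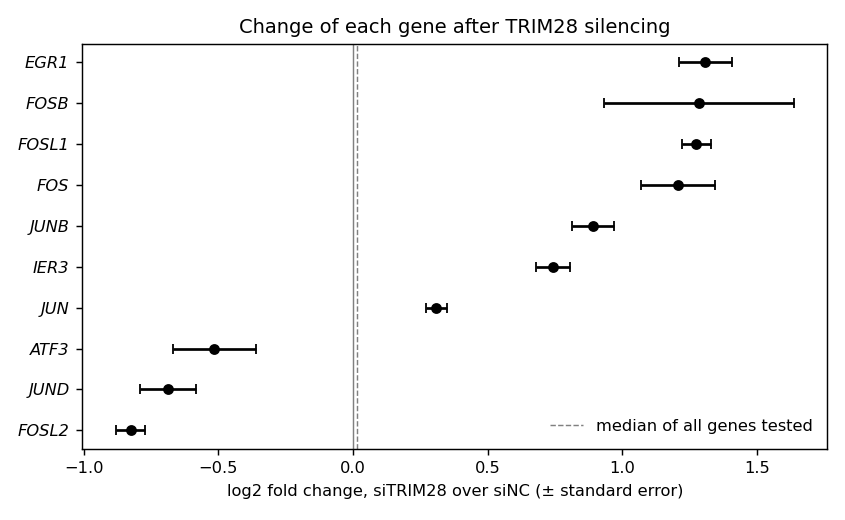
Log2 fold change of each gene, siTRIM28 over siNC, with its standard error as a bar; the dashed line is the median of all genes tested, 0.02. EGR1, FOSB, FOSL1 and FOS lie between 1.21 and 1.31, JUN is the smallest rise at 0.31, and FOSB has the widest error.

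The order of the levels per length changed between the groups. In siNC the order in RPKM was JUN (101), FOSL1 (98.4), IER3 (24.9), FOSL2 (20.2), JUND (12.8), JUNB (5.29), EGR1 (2.22), ATF3 (1.90), FOS (0.861) and FOSB (0.0747). The libraries of JUN and FOSL1 overlapped, as did those of EGR1 and ATF3, and all other neighbours were apart. In siTRIM28 FOSL1 (238) stood above JUN (125), JUNB (9.79) above JUND (7.88), and FOS (1.99) above ATF3 (1.32), and no neighbours overlapped. The deposited length was larger than the deposited span for 3 of the 10 genes and for 565 genes of the table; with exon lengths from GENCODE v29 the FOSL1 gain in the FOS family was 12.2 percentage points.

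Promoter sequences are shown for EGR1 and FOS, which rose, and for JUND and FOSL2, which fell, since their start regions differ in the binding motifs of SRF, CREB and AP-1. Each runs from 250 bases before to 50 after a RefSeq start site on GRCh38.p14, read 5′ to 3′ on the gene's strand, and 8 of the 10 genes had such an entry, all but FOSL1 and IER3. Capitals mark matches, on either strand, to the SRF-binding CArG box, the CREB motif TGACGTCA, its shorter core TGACG, the JUN-type motif TGACATCA and the AP-1 motif TGANTCA; TGACGTCA holds TGACG within it. EGR1 is at chr5:138465229-138465528, plus strand, FOS at chr14:75278578-75278877, plus strand, JUND at chr19:18281573-18281872, minus strand and FOSL2 at chr2:28392608-28392907, plus strand.
EGR1: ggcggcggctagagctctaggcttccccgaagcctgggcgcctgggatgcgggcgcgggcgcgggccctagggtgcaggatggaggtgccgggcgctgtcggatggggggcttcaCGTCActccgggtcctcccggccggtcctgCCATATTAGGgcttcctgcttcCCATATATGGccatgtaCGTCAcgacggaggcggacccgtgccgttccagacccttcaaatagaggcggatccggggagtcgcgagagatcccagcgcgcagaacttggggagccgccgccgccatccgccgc
FOS: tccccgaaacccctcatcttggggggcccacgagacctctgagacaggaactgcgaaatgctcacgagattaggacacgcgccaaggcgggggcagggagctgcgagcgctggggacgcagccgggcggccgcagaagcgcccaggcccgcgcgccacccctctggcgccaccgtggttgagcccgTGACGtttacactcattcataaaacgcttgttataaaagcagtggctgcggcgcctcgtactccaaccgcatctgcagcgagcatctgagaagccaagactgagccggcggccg
JUND: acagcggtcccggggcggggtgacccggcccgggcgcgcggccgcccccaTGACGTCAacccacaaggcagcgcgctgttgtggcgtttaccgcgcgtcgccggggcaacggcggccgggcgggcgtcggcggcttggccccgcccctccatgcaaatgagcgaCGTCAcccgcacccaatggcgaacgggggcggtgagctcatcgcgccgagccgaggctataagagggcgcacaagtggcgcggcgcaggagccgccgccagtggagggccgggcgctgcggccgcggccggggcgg
FOSL2: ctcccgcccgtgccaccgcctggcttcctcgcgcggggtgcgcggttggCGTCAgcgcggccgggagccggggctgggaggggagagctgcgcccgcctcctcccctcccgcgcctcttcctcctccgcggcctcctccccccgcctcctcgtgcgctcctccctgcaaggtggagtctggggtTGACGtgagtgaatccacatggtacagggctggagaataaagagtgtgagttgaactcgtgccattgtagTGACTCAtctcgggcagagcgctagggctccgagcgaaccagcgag

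Within this window EGR1 was the 1 gene of the 8 with a CArG box, with matches that begin 105 and 83 bases upstream of the start. The share was 1.11% of 15882 promoters of 11033 tested genes. Sequence more than 250 bases before the start was not searched, so a site there, in FOS or another gene, would be missed. TGACGTCA was found in JUND alone, 200 bases upstream, against 2.80% of promoters, and TGANTCA in FOSL2 alone, 5 bases after the start, against 5.26%. JUN and ATF3 held TGACATCA, 67 and 123 bases upstream, against 1.55% of promoters. ATF3 had another window, at chr1:212614768-212615067, without a match. The 8 genes are counted by a match in any of their windows, whereas the shares are per promoter. The short core TGACG was found in 7 of the 8 genes and in 32% of promoters, in genes that rose and in genes that fell. A match describes the letters of this window and not binding in these cells.

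The 3′ ends of these mRNAs differed in AU-rich pentamers, the ATTTA letters that mark many short-lived early response mRNAs. FOS held 5 ATTTA matches in 806 bases of the longest annotated 3′ UTR (6.20 per kilobase) and IER3 held 6 in 903 bases (6.64 per kilobase), more per kilobase than 95.6% and 96.6% of 12120 tested genes. The stretch of the FOS 3′ UTR from base 623 to 652 shows overlapping matches in capitals.
FOS 3′ UTR: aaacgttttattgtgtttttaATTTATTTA
JUNB followed with 4 per kilobase, whereas EGR1, with the highest fold change, had 1 match in 1234 bases (0.810 per kilobase) and FOSL1 had 1 in 837. FOSL2, which fell, had 9 matches in 4864 bases (1.85 per kilobase), near the median of 1.69 over all genes. ATF3 and JUND, which also fell, had 2.45 and 1.47 per kilobase. JUN and FOSB, which rose, had 2.33 and 1.38. Matches were thus not more frequent in every gene that rose than in those that fell, and their part in the changes was not tested.

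Some genes had values close to those of single members over the 6 libraries. Likeness was the Euclidean distance between log2 CPM values after subtraction of the siNC mean. The search covered 11339 other genes with a gene symbol and a mean of at least 50 counts. This distance includes the difference between the groups, so it mainly finds genes of near-equal fold change. Shared variation between cultures of a group was not tested. Closest to EGR1 were ANKRD52 (0.106), FOSL1 (0.117) and PMAIP1 (0.128), with log2 fold changes of 1.32, 1.28 and 1.27 against 1.31 for EGR1. Closest to FOS were CLEC2B (0.147), ZNF141 (0.184) and SFXN3 (0.206). Closest to FOSL2, the deepest fall, were CCDC77 (0.1), RAB10 (0.107) and HMGN2 (0.111).

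Other immediate early genes mostly rose as well. Of 24 listed, 21 passed the count minimum, 15 were higher and 1 was lower, with a median log2 fold change of 0.70. The share called was 76.2%, against 41.8% of all genes tested (21.3% higher and 20.5% lower). The list was chosen with earlier results of these data known, so this share is a description and not a test. EGR3, named for this, passed through the siTRIM28 group alone and is included in that median and share. Of the other 20, 14 were higher. PPP1R15A, a stress-induced regulator of translation initiation, went from 132 ± 1.26 to 264 ± 12.2 CPM (log2 fold change 1.00, edgeR adjusted p = 2.25e-08). IER2 went from 35.1 ± 2.39 to 69.6 ± 2.64 CPM (0.99, edgeR adjusted p = 4.16e-07), and ZFP36, whose product binds AU-rich elements and speeds mRNA decay, from 5.62 ± 0.997 to 12.6 ± 1.44 CPM (1.17, edgeR adjusted p = 4.8e-05). KLF2, KLF10 and IER5 rose by 1.86, 0.70 and 0.52 on the log2 scale. The 1 lower gene was CCN2, a matricellular factor, at -0.43, chosen for mention after its value was seen.

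Genes that are known AP-1 targets in other systems were mostly higher too. Of 25 listed, 19 passed the minimum, 14 were higher and 1 was lower, with a median log2 fold change of 0.51. The share called was 78.9%, against 41.8% of all genes tested (21.3% higher and 20.5% lower). This list too was chosen with earlier results of these data known, so its share is not a test. CXCL8, a neutrophil chemokine, went from 3.52 ± 0.754 to 17.8 ± 1.91 CPM (2.33, edgeR adjusted p = 2.41e-07). PHLDA1 went from 285 ± 3.63 to 578 ± 46.3 CPM (1.02, edgeR adjusted p = 7.8e-08), and CCND1, which encodes cyclin D1, from 261 ± 2.17 to 387 ± 2.76 CPM (0.57, edgeR adjusted p = 2.93e-07). The EGF receptor ligand EREG rose by 0.91 on the log2 scale. CD44, a cell adhesion receptor, fell from 717 ± 7.81 to 435 ± 3.48 CPM (-0.72, edgeR adjusted p = 3.5e-08).

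Partners and upstream factors held calls in both directions, as all genes tested did, of which 21.3% were higher and 20.5% lower. Of 13 further bZIP partners, 9 passed the minimum; MAFG rose by 0.72 (edgeR adjusted p = 4.04e-05), and ATF7 and NRL fell by 0.23 and 0.58 (edgeR adjusted p = 0.019 and 0.0271), with a list median of 0.07; the 33.3% called was no more than the 41.8% of all genes tested. Both lower calls of this list were lost in edgeR when the close pairs of libraries were summed. Of 10 genes of the SRF, ELK, CREB and NAB group, all passed, 2 were higher and 4 lower (60% called), with a median of -0.15. The lower calls of this group were 3 in most alternatives. ELK1, an SRF partner, fell from 14.9 ± 1.67 to 8.36 ± 1.64 CPM (-0.85, edgeR adjusted p = 0.000397), NAB1 and NAB2, which restrain EGR proteins, were at -0.44 and 0.39, and SRF itself, named although it was not called, was at -0.15 (edgeR adjusted p = 0.0754). Of 19 MAP kinase pathway genes, 6 were higher and 5 lower (57.9% called), with a median of 0.04. MAP2K1, which encodes MEK1, fell from 220 ± 3.09 to 132 ± 7.34 CPM (-0.73, edgeR adjusted p = 3.38e-07), and MAPK12 was at 0.55.

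**Figure D3:**
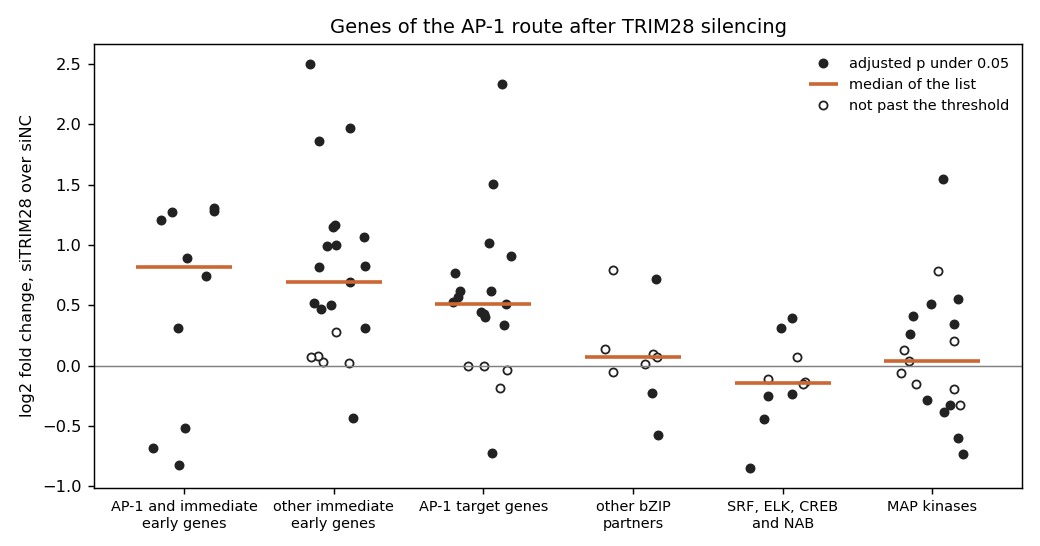
Log2 fold change, siTRIM28 over siNC, of each tested gene in 6 lists; filled points have an edgeR adjusted p under 0.05, open points do not, and orange bars are list medians. The medians are 0.82, 0.70 and 0.51 for the 10 genes, the other immediate early genes and the AP-1 target genes, and 0.07, -0.15 and 0.04 for the partners, SRF group and kinases. The medians of the 10 genes and of the other immediate early genes include FOSB and EGR3, which passed the count minimum through siTRIM28 alone.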

How the data were processed

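Per the labels, RNA was extracted with TRIzol, enriched for poly(A) RNA and made into libraries with a stranded kit. The submitters' processing notes name fastp 0.23.1, STAR 2.7.6a, featureCounts and GRCh38. The authors deposited raw counts per gene with gene lengths. A second deposited table, of the authors' own comparison (expression values, fold changes and p-values), was not used. Genes reaching 10 counts in no fewer than 3 of the 6 libraries were kept (18474 of 78932 genes) and fitted with edgeR 4.0.16 (TMM, glmQLFit, glmQLFTest; R 4.3.3), with Benjamini-Hochberg adjustment over all genes tested and a threshold of 0.05. The SE is the absolute log2 fold change over the square root of F. CPM and RPKM were computed from the counts with TMM-scaled library sizes. Shares and ratios were compared by exact two-sided permutation over libraries (scipy 1.17.1), and 95% intervals of ratio differences used the SDs of the groups and 4 degrees of freedom. Log2 ratios of gene pairs were taken from log2 CPM with a prior count of 2 added before the log. With a prior count of 0.5 the FOS to JUN difference was 0.89. DESeq2 1.42.0, limma 3.58.1, other scalings and minima, leaving out each library, a replicate block and a summed close pair were the alternatives. Scripts were tested on simulated data. All 10 genes and TRIM28 are named, and of each other list at most the 6 called genes of lowest p, of which some are not reported here. The genes and lists were chosen with earlier results of these data known. The labels call the cultures biological replicates, and p-values measure the spread between these libraries of 1 line. The close pairs, with chi-square values of 1.08 and 1.24, differed little more than counting alone would give. If they are not separate cultures, the p-values, SDs and intervals understate the spread between cultures. Same-numbered libraries did not deviate together (r = 0.0658, -0.0242 and 0.0506 over 12828 genes; a pair needs 0.1), so no pairing was used.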

Additional observations from a re-analysis of the deposited data

How the results depend on the processing

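FOS, FOSL1, FOSL2, JUN, JUNB, JUND, EGR1, IER3 and TRIM28 kept their direction and their call in all 16 alternatives each, with FOSL1 between 1.23 and 1.33, EGR1 between 1.23 and 1.38 and FOSL2 between -0.88 and -0.79. The counts of the 10 genes were 6 to 7 higher and 2 to 3 lower. FOSB lost its call in DESeq2 and at an adjusted p under 0.01, and was not tested with at least 10 counts in every library; ATF3 lost its call at an adjusted p under 0.01 too, besides the settings given above. Of the other bZIP partners, the lower calls were 1 in DESeq2, 0 with the close pairs summed, 0 at an adjusted p under 0.01 and 0 to 2 when each library was left out, with 0 without siNC replicate 1 or siTRIM28 replicate 3; both genes had an unadjusted p under 0.05 in each of these edgeR and DESeq2 fits. The higher calls of that list were 1 to 2, with 2 without siTRIM28 replicate 1. The SRF group had 1 higher call at an adjusted p under 0.01 and 1 to 2 when each library was left out, with 1 without siNC replicate 2 or 3. Its lower calls stayed at 4 with RLE scaling and without siTRIM28 replicate 2, and were 3 in every other alternative. The AP-1 target genes had 1 to 2 lower calls, with 2 without siTRIM28 replicate 1. With the close pairs summed, the other immediate early genes had 14 higher calls, the MAP kinase pathway genes 5 higher calls and the SRF group 3 lower calls. The FOSL1 gain was 27.6 points from raw counts without length, and 12.2 points with GENCODE exon lengths, an alternative chosen after seeing the data. The EGR1 to FOS difference was -0.0055 without siTRIM28 replicate 3 and 0.22 at most when another library was left out. The causes were not tested.

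The fit with a replicate block called 7910 genes, against 7723 without it, and changed no call of the 10 genes. The numbers are not known to pair the cultures. DESeq2 called 5878 genes, 31.8% of those tested, and with the close pairs summed edgeR called 5935. Of the called genes 51.1% were higher, and 56.6% with upper-quartile scaling. FOS and FOSB, with 41 to 121 and 3 to 14 counts a library, are the genes that depth limits most.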
